A study of Homo sapiens with 4 samples.

Results

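The subtelomeres described here are the outer 1 Mb of 33 ends of chromosomes 1 to 22, those that hold no large cluster of zinc finger genes. Every listed region whose midpoint lay in these stretches was taken, leaving out both ends of chromosome 4, the long-arm ends of chromosomes 8, 10, 12 and 19, and the short arms of chromosomes 13, 14, 15, 21 and 22, which have no assembled end. This left 16 short-arm and 17 long-arm ends, named by chromosome and arm, so that 18q is the end of the long arm of chromosome 18. Of 57082 listed regions, 758 were members, made up of 66 of 2836 PRO peaks, 434 of 35535 RS peaks and 258 of 18711 DiffBind regions. The peaks mark H4K20me3, histone H4 trimethylated at lysine 20, mapped by chromatin immunoprecipitation and sequencing in IMR90, an established line of diploid fibroblasts from human lung that divides a limited number of times. PRO cells were dividing cells taken at population doubling 32. RS cells were taken at population doubling 86, once passaging had brought them to a lasting arrest, which is called replicative senescence. Both states were grown in 3% oxygen, carried no transgene or drug treatment, and were profiled with 2 antibodies, from Millipore and from Cell Signaling Technology. A peak had to be found with both antibodies, so each state has 1 merged list, no value per sample and no test between states. The study reports that peaks from the antibodies overlapped far more in RS than in PRO cells. The part of this requirement in the differences between the PRO and RS lists was not tested, because the lists do not separate the antibodies. DiffBind regions are those that the authors scored as different between the states by read counts, and the list gives no direction for them.

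Telomeres are long arrays of the hexamer TTAGGG that cap each chromosome, and they shorten as cultured fibroblasts divide. The subtelomeres next to them are mosaics of segments shared between chromosomes, of short tandem repeats and of gene families with many copies. H4K20me3 is laid down largely by SUV420H2 and goes with H3K9me3 in compact, silent chromatin, including that of telomeres and other repeated DNA.

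Tandem repeats lay in many of the PRO peaks. Of the PRO peaks with the most windows of tandem sequence and no run of telomere-like units, 5 are each represented by consecutive copies of their repeat unit, on the forward strand of the GRCh37 genome, whose coordinates on chromosomes 1 to 22 are those of hg19. Capitals and lower case alternate from copy to copy.
5p, unit of 32 bases, chr5:260163-260290: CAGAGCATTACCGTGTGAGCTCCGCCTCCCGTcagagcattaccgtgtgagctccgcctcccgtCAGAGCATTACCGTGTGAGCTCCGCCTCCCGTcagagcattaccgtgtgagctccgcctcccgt
19p, unit of 54 bases, chr19:431383-431598: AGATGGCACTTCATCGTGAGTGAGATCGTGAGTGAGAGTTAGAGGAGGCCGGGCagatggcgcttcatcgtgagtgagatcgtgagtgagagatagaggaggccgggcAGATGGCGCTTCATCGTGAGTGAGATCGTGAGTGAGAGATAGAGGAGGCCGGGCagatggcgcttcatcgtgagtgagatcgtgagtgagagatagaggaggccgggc
15q, unit of 91 bases, chr15:102293176-102293357: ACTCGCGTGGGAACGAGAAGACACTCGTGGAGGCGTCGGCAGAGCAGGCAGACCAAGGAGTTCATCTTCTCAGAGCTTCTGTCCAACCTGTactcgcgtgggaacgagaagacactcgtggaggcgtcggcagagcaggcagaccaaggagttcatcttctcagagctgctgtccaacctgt
18q, unit of 60 bases, chr18:77378591-77378830: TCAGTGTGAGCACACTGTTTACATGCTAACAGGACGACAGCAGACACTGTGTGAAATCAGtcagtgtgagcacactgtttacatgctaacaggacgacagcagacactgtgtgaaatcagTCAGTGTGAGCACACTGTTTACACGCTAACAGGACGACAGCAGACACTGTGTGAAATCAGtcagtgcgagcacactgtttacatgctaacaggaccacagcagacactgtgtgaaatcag
13q, unit of 54 bases, chr13:114601803-114602018: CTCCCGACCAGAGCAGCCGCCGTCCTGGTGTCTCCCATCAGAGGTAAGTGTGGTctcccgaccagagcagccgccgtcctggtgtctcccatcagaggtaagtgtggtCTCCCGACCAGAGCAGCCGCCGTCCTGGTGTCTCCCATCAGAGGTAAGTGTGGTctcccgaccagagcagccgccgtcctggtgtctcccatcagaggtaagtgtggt

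The unit of 5p lies in the coding gene ENSG00000286001, outside annotated exons. Its PRO peak also meets SDHA, the flavoprotein subunit of succinate dehydrogenase, but the shown stretch lies outside SDHA. The unit of 19p lies in an intron of SHC2, a signalling adaptor, and that of 15q in the pseudogene DNM1P47, where all of its bases are annotated as exon. The unit of 13q lies in the non-coding gene LINC00452, with 43 of 216 bases in an exon, and that of 18q lies in no gene. Neighbouring copies in these peaks were between 97.8% and 100.0% identical over their best stretch. The shown stretches of 5p, 19p and 15q were in peaks in both states, and those of 18q and 13q were in a PRO peak alone. The 13q stretch fell in a gap between RS peaks, and its PRO peak shared 1802 of 2601 bases with RS peaks. The PRO peak of 18q shared 0 of 2801.

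Across the 33 ends, PRO peaks covered 96066 bases, RS peaks 497234 and DiffBind regions 578058. RS peaks thus covered 5.18 times as many bases as PRO peaks, against 11.4 times in the rest of chromosomes 1 to 22 and 5.3 times at the 6 ends left out. PRO peaks took 0.31% of the 30.9 Mb of known sequence at the ends, 2.65 times their share of 0.117% in the rest of these chromosomes. RS peaks took 1.61%, 1.2 times their share of 1.34% elsewhere, and DiffBind regions took 1.87%, 1.55 times their share of 1.21%. The ends therefore stood further above the remaining sequence in PRO than in RS cells. The 6 ends left out, with 3.22% in PRO peaks and 17.1% in RS peaks, were far more densely listed in both states. With regions that hold an exactly repeated window of 75 bases set aside, the ratio of RS to PRO bases was 17 at the 33 ends and 24.1 in the rest.

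RS peaks covered more bases than PRO peaks at 33 of 33 ends, where 99.3% of all 1-Mb windows of chromosomes 1 to 22 had more and 0.223% had fewer. Covered bases do not give the amount of the mark. By other measures, the study reports less H4K20me3 at subtelomeric regions in RS cells and no gain in reads of telomeric repeats. Its quantitative PCR beside the telomeres showed a significant decrease at 17p and no increase at 18q. An RS peak lay at 33 ends, against 99.5% of windows, and a DiffBind region at 32, against 98.3%, so neither count sets the ends apart. A PRO peak lay at 25 ends, against 34.7% of windows. By the share of known bases covered, 19 ends were above the 90th percentile of windows in PRO, 9 in RS and 11 in the DiffBind list. Median peak length was 801 bases in PRO and 1001 in RS, against 601 and 801 in the rest, and 1801 for DiffBind regions, against 1601.

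**Figure D1:**
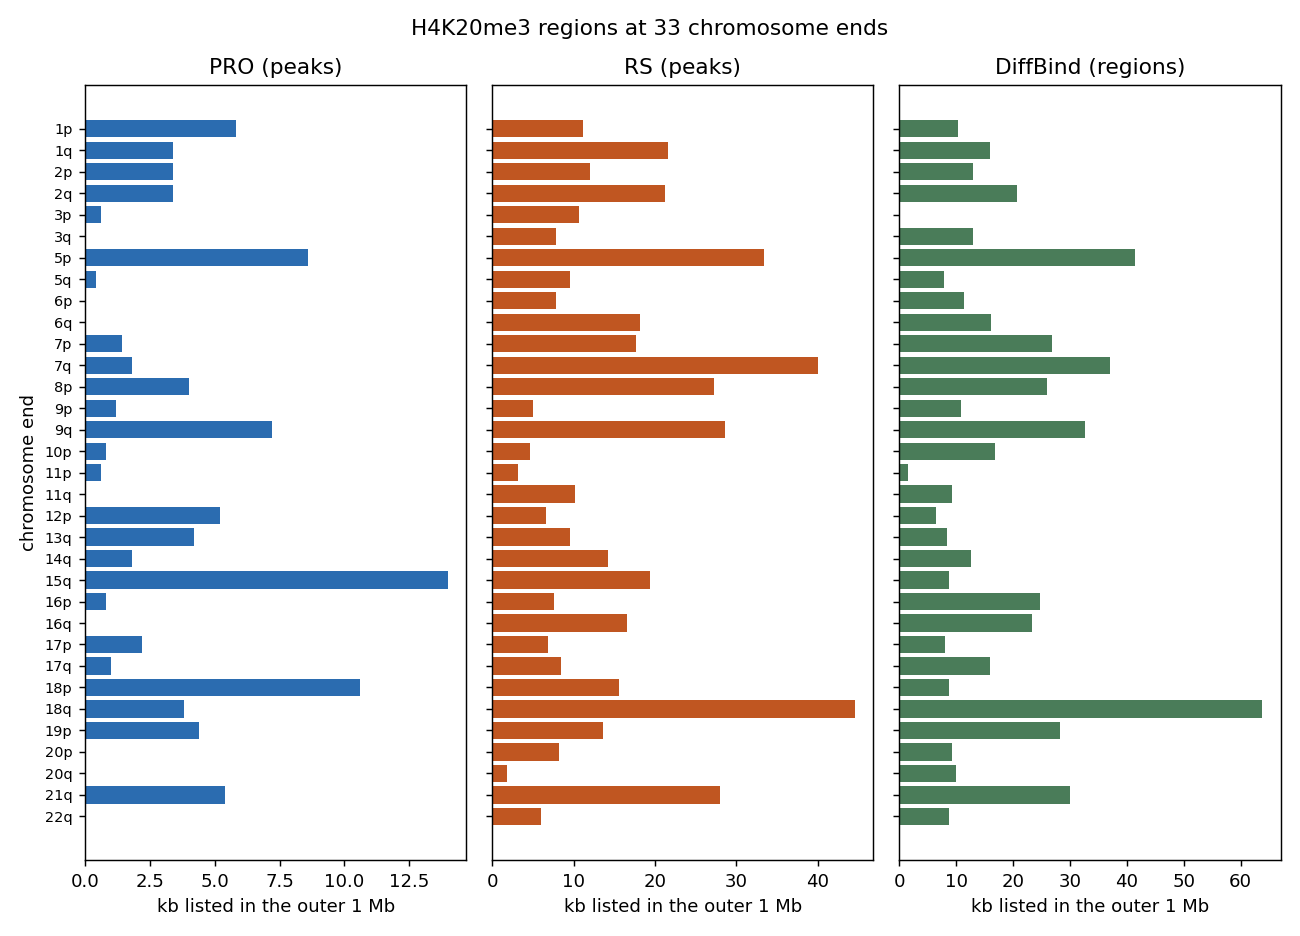
Kilobases in PRO peaks, RS peaks and DiffBind regions (x axes, each panel on its own scale starting at 0) in the outer 1 Mb of each of the 33 ends (y axis). The longest bars are 15q in PRO at 14003 bases and 18q in RS and in the DiffBind list at 44628 and 63815 bases.

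The ends differed widely within each state. RS bases ran from 1802 at 20q to 44628 at 18q with a median of 11209, and the 5 leading ends, 18q, 7q, 5p, 9q and 21q, held 35.1% of them. PRO bases ran from 0 to 14003 with a median of 1803, and 15q, 18p, 5p, 9q and 1p held 48.1%. DiffBind bases ran from 0 at 3p to 63815 at 18q with a median of 13006. Only 5p and 9q were among the leading 5 in both states.

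The ends fall into 4 groups by their PRO and RS bases. In the first, 8 ends had no PRO peak. RS peaks there covered 18210 bases at 6q, 16611 at 16q, 10214 at 11q, 8207 at 20p, 7807 at 6p, 7805 at 3q, 6007 at 22q and 1802 at 20q. All 8 had DiffBind regions, from 8806 bases at 22q to 23405 at 16q. Each begins with 60000 unknown bases, which hold no sequence for reads to match. The same number of unknown bases lies at the tips of 10 ends that had a PRO peak, and the 15 ends with fewer unknown bases all had one. The part of unknown tip sequence in the lack of PRO peaks was not tested.

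In the second, 4 ends had less than 2 RS bases for each PRO base. PRO and RS peaks covered 5202 and 6608 bases at 12p, 14003 and 19411 at 15q, 10604 and 15610 at 18p, and 5804 and 11209 at 1p. At 15q a single long peak held most of the bases, 12601 in PRO and 12201 in RS. At 18p the longest peaks, of 7201 bases in PRO and 6601 in RS, overlapped. At 12p it was a PRO peak of 4001 bases, of which an RS peak covered 601.

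In the third, 5 ends had more than 10 RS bases for each PRO base. PRO and RS peaks covered 3803 and 44628 bases at 18q, 1803 and 40035 at 7q, 1403 and 17617 at 7p, 601 and 10615 at 3p and 401 and 9610 at 5q. The end 5q had the highest ratio, 24.0. The end 3p stood alone in having 15 RS peaks and no DiffBind region.

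The other 16 ends lay between these limits. PRO and RS bases were 3402 and 21625 at 1q, 3403 and 12013 at 2p, 3402 and 21216 at 2q, 8603 and 33429 at 5p, 4002 and 27219 at 8p, 1202 and 5005 at 9p, 7205 and 28626 at 9q and 802 and 4605 at 10p. They were 601 and 3203 at 11p, 4204 and 9611 at 13q, 1804 and 14215 at 14q, 801 and 7605 at 16p, 2202 and 6804 at 17p, 1002 and 8411 at 17q, 4404 and 13612 at 19p and 5403 and 28029 at 21q. The ends of long arms had 6.59 RS bases for each PRO base and those of short arms 3.85, with PRO shares of 0.293% and 0.329%.

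A minority of the PRO peaks at the ends were listed again in RS cells. Of 66 PRO peaks, 24 shared at least 1 base with an RS peak, 36.4% with an exact Clopper-Pearson interval of 24.9% to 49.1% that covers counting error only. Over chromosomes 1 to 22 the share was 54.4%. By bases, 46.5% of PRO coverage at the ends lay in RS peaks, against 69.4% in the rest. The 24 shared peaks lay at 15 ends and had a median length of 2001 bases, whereas the 42 others lay at 22 ends and had a median of 601. At 10 ends, 2p, 5q, 7p, 9p, 10p, 11p, 14q, 16p, 17p and 17q, there were PRO peaks and none of them met an RS peak.

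The DiffBind regions lay mostly where RS peaks did. Of 258, 173 met RS peaks alone, 3 met PRO peaks alone, 2 met both and 80 met neither. The 175 that met an RS peak made up 67.8% (61.8% to 73.5%), against 73.9% over chromosomes 1 to 22. Seen from the other side, 216 of 434 RS peaks met a DiffBind region, 49.8% (45.0% to 54.6%), against 44.9%. Both shares were near those of all autosomes, the first lower and the second higher. Each interval, which covers counting error only, stopped just short of the value of all autosomes. Among the 21 ends with at least 10 RS peaks, the share of RS peaks over a DiffBind region ran from 0% at 3p to 83.3% at 19p, with a median of 46.2%. Of 66 PRO peaks, 5 met a DiffBind region, at 1p, 10p, 17q, 18q and 2q. That is 7.58% (2.51% to 16.8%), an interval that includes the 11.8% of the rest of chromosomes 1 to 22.

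PRO peaks crowded towards the tips and RS peaks did not. In the outer 100 kb, counted from the end of the assembly and including its unknown bases, PRO peaks covered 1.23% of known bases, against 0.246% in the other 900 kb, a ratio of 5.0. RS peaks covered 1.44% there and 1.62% further in, a ratio of 0.887. For DiffBind regions the ratio was 1.1, with 2.04% in the outer 100 kb. As a result, RS peaks covered 1.17 times as many bases as PRO peaks in the outer 100 kb and 6.59 times as many in the rest of the ends. Leaving out each end in turn moved the ratio of PRO coverage between 3.91 (without 12p) and 6.31 (without 15q) and that of RS coverage between 0.77 (without 21q) and 0.969 (without 18q). It moved that of DiffBind coverage between 0.87 (without 9p) and 1.23 (without 18q), on both sides of 1.

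At single ends the outer 100 kb went either way. PRO bases exceeded RS bases at 7 ends, 1p, 1q, 2q, 12p, 17q, 18p and 19p, which is 21.2% of the 33 (8.98% to 38.9%), where 1.49% of all 100-kb windows of chromosomes 1 to 22 had more PRO than RS bases. RS bases exceeded PRO bases at 9 ends, against 51.6% of windows. At 5p each state had 3002 bases, and 16 ends had no peak of either state there. The largest excess of PRO bases was at 12p, with 5202 against 1202, and the largest excess of RS bases was at 7q, with 401 in PRO and 4606 in RS. At 17q the difference was 1 base.

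**Figure D2:**
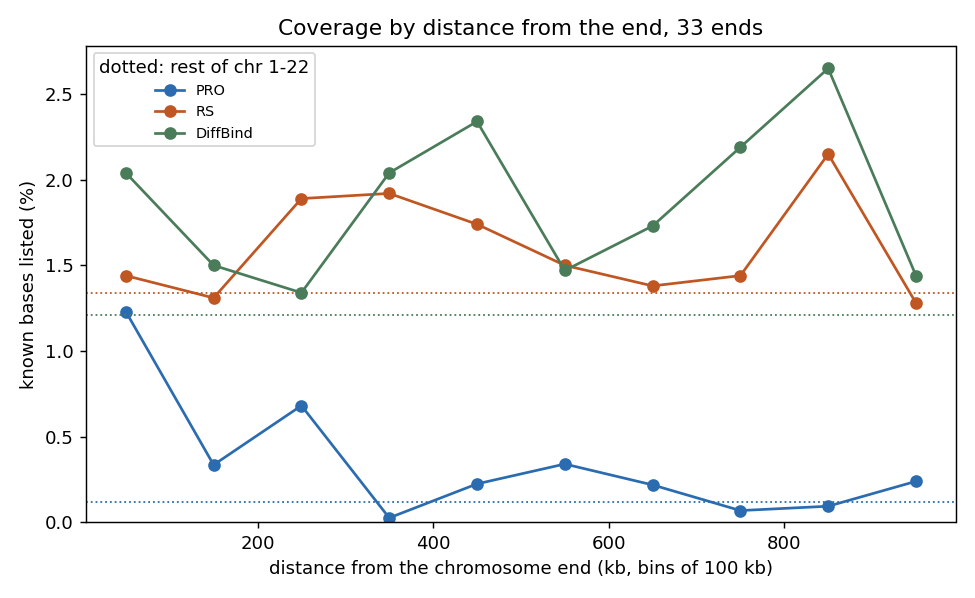
Percent of known bases listed (y axis) in 10 bins of 100 kb by distance from the chromosome end in kb (x axis), pooled over the 33 ends, for PRO peaks, RS peaks and DiffBind regions, with dotted lines at each list's share in the rest of chromosomes 1 to 22. PRO coverage is highest in the first bin at 1.23%, while RS coverage stays between 1.28% and 2.15% throughout.

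The outermost known bases of several chromosomes hold the start of the telomere, which makes them the most direct view of the telomere that these lists give. Runs of at least 3 adjacent TTAGGG units on either strand were counted, and runs less than 1 kb apart were joined into clusters. The 33 ends held 155 such runs in 38 clusters at 27 ends. Of the 155 runs, 51 (32.9%) lay in a PRO peak, 38 (24.5%) in an RS peak and 0 in a DiffBind region. On chromosomes 1 to 22 away from the ends, 1 of 96 runs lay in a PRO peak, 2 in an RS peak and 0 in a DiffBind region. The 6 ends left out held 23 more, 17 of them in PRO peaks, 15 in RS peaks and 0 in DiffBind regions.

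A cluster was counted as lying in a peak where at least 1 of its runs met that peak, so it could be covered in part. Of the 38 clusters, 5 lay in peaks of both states, 4 in a PRO peak alone, 3 in an RS peak alone and 26 in neither. Length went with listing, in that 12 of the 24 clusters with at least 6 units lay in a peak and 0 of the 14 shorter ones did. Of the 14 clusters at a tip, within 1 kb of the outermost known base, 6 lay in a PRO peak and 5 in an RS peak. Of the 24 clusters further in, 3 lay in a PRO peak and 3 in an RS peak. The 9 PRO peaks with a run held 25% of all PRO bases at the ends and the 8 RS peaks with one held 1.09% of RS bases. The PRO bases include a whole peak of 7201 bases at 18p, which holds 1 run of 4 units. In RS the same stretch was listed as a peak of 201 bases with the run and a peak of 6601 without. Without the peaks that hold a run, which keeps the RS peak of 6601 bases, RS bases were 6.83 times PRO bases.

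The tips did not behave alike. Peak lengths given for tips include unknown bases where a peak reaches past the known sequence. The 5p tip, with 298 units over 1803 bases and a longest run of 183 units, lay in a peak of 2001 bases in both states. At 1q, with 86 units, the PRO peak ran over 2801 bases and the RS peak over 801, and at 21q, with 17 units, over 3001 and 401. The RS peaks at both tips lay inside the PRO peaks. At 1q the RS peak covered 694 of the 695 bases of the repeat cluster. At 21q it covered all 107, which were part of 295 known bases in that peak.

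Tips listed in 1 state were found in both directions. The 1p tip with 64 units, the 7p tip with 34 and the 7q tip with 14 lay in PRO peaks and in no RS peak. These PRO peaks had 1601, 401 and 401 bases, of which 1401, 201 and 263 were known. The 15q tip with 39 units and the 18p tip with 61 lay in RS peaks of 401 bases each and in no PRO peak. At 18p the RS peak covered 401 of the 621 bases of the cluster. Those of 9p, 17q, 11q, 2p, 16p and 18q, with 20, 12, 9, 6, 5 and 5 units, lay in no region. Because the tips hold exact copies of the same hexamer, reads from 1 telomere can be placed at another, and the part of this in the listing of single tips was not tested.

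Further in, the 2q cluster of 16 units, 36797 bases from the outermost known base, lay in a PRO peak of 2601 bases and an RS peak of 801. The 12p cluster of 69 units lay in the PRO peak that also covers all 1192 bases of DDX11L8, a pseudogene copy of the helicase gene DDX11, and in no RS peak. At 18p, a cluster of 16 units met a peak of both states, with 158 of its 335 bases covered in each. A cluster of 10 units there lay in an RS peak alone. The clusters of 63 units at 3q, 61 at 20q and 28 at 11p, which are among the longest, lay in no region.

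**Figure D3:**
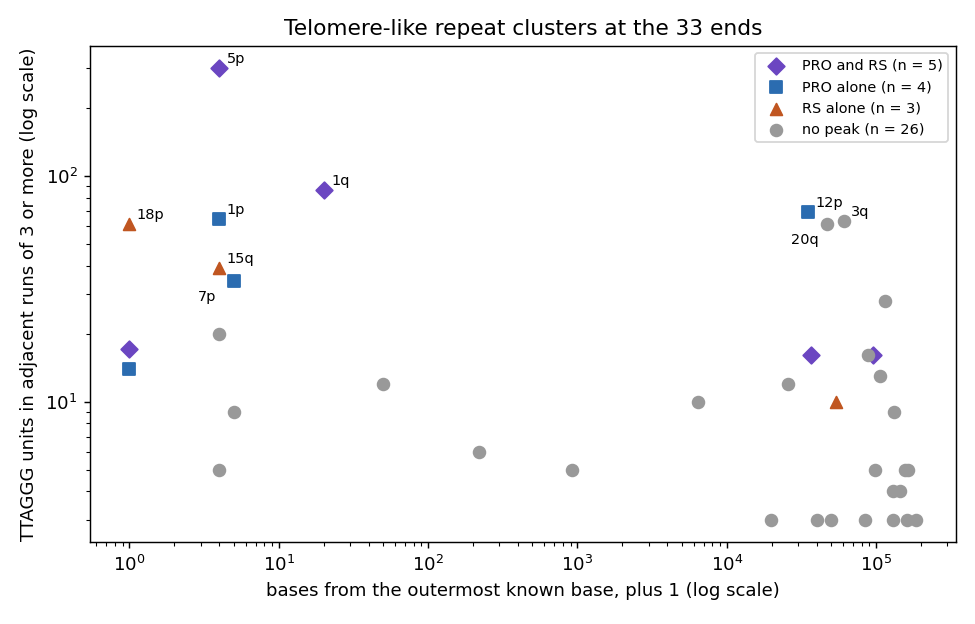
Each point is 1 of the 38 telomere-like clusters, placed by its distance from the outermost known base in bases plus 1 (x axis, log scale) and by its TTAGGG units in runs of 3 or more (y axis, log scale), with the marker giving the list it lies in. Clusters of under 6 units are all in no peak, and the longest cluster, 298 units at 5p, is in both states.

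**Figure D4:**
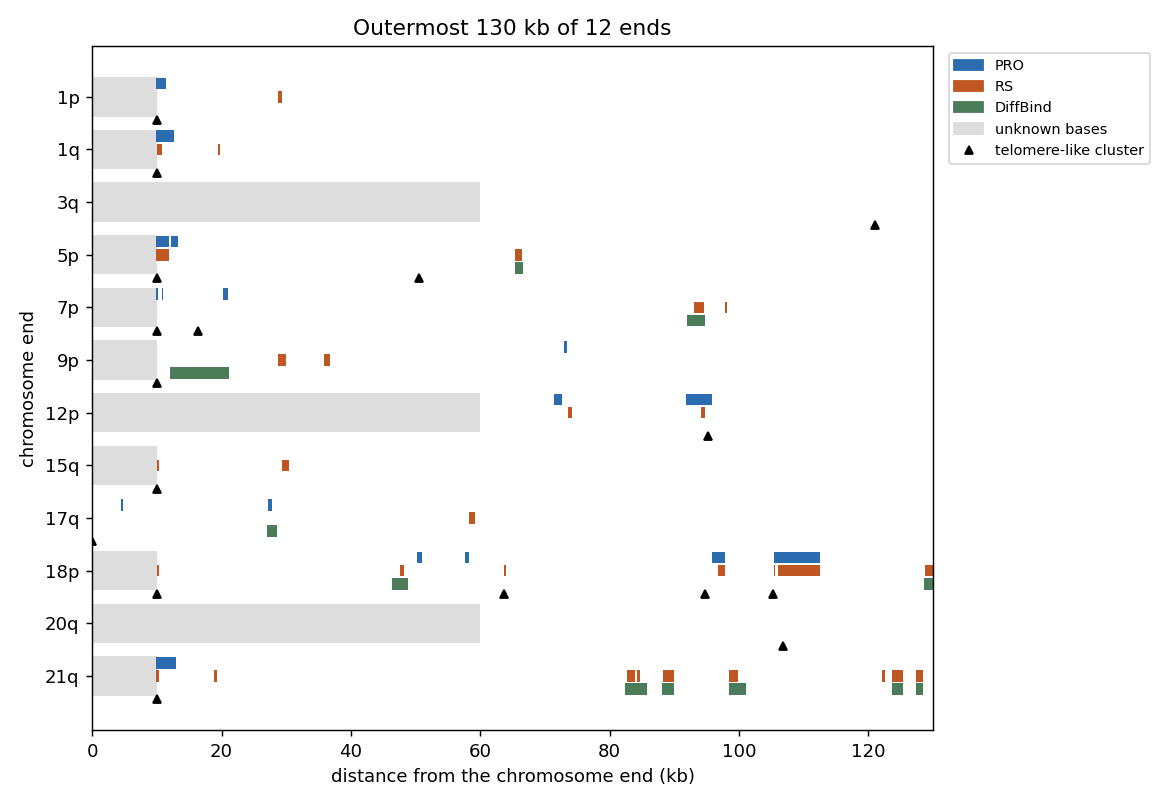
Regions in the outermost 130 kb (x axis, kb from the chromosome end) of 12 ends (y axis), with PRO peaks, RS peaks and DiffBind regions drawn to scale on separate levels, unknown bases in grey and telomere-like clusters as triangles. At 1p the PRO peak at the tip has no RS partner, while at 15q and 18p the tip has an RS peak only.

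Sequence composition set the listed regions apart from the remaining sequence of the same ends, for which 29581 tiles of 1 kb in no list were used. Median GC content was 51.8% in PRO peaks, 52.4% in RS peaks and 52.6% in DiffBind regions, against 47.2% in the tiles. Windows of 400 bases were called tandem where they matched themselves to at least 80% after a shift of 5 to 200 bases. Tandem windows made up 21.3% of PRO, 11.4% of RS and 6.88% of DiffBind sequence, against 1.56% of the tiles. Of the 18 PRO peaks with a tandem window, which held 53.9% of PRO bases, 15 had no telomere-like run, and 8 of those 15 met an RS peak. PRO peaks that met an RS peak had a tandem window in 11 of 24 cases and the others in 7 of 42.

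Many listed sequences had exact copies. In PRO peaks 45.0% of 75-base windows, about the length of a read, occurred again exactly elsewhere in the genome, against 15.5% in RS peaks, 13% in DiffBind regions and 10.3% in unlisted sequence. At the level of whole regions, 42 of 66 PRO peaks (63.6%, 50.9% to 75.1%) held such a window, against 41.6% of PRO peaks in the rest of chromosomes 1 to 22. The values for RS were 128 of 434 (29.5%, 25.2% to 34.0%) and 22%, and for DiffBind regions 87 of 258 (33.7%, 28.0% to 39.8%) and 23.1%. Of the repeated windows, 39.8% in PRO, 12.5% in RS and 35.5% in the DiffBind list had a copy at another chromosome end, and 56.0%, 76.1% and 50.1% had copies only at the same end. Unlisted sequence in the outer 100 kb was itself repeated in 45.9% of windows, against 75 of 125 windows of PRO peaks, 32.9% of RS and 47.4% of DiffBind windows there.

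**Figure D5:**
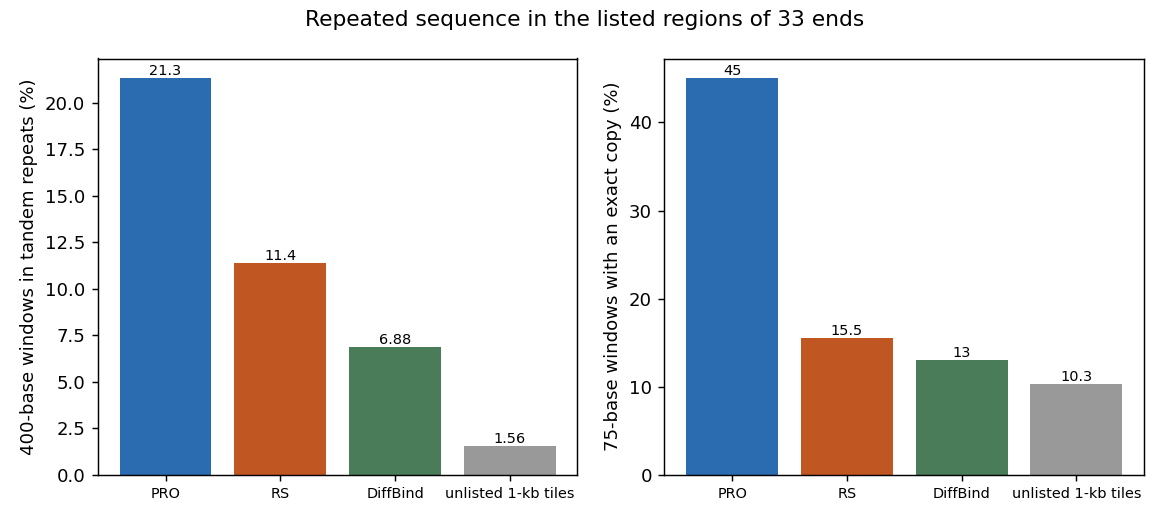
Bars give the percent of 400-base windows called tandem (left y axis) and of 75-base windows with an exact copy elsewhere (right y axis) in PRO peaks, RS peaks and DiffBind regions of the 33 ends and in 1-kb tiles of the same ends that overlap no listed region. PRO bars are the highest in both panels, at 21.3% and 45%.

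A further set of PRO peaks was very rich in GC, a class chosen after the values were seen. Of 66 PRO peaks, 10 had at least 65% GC, and 0 of these met an RS peak (exact interval up to 30.8%), whereas 24 of the 56 others did (42.9%). Of the 11 RS peaks at the ends with at least 65% GC, 3 met a PRO peak, against 23 of the 416 others longer than 1 base. Seen from the RS list, the GC-rich peaks thus met the other state more often than the rest did. In the rest of chromosomes 1 to 22, 39 of 190 such PRO peaks met an RS peak (20.5%), against 58.6% of the others. Among the 10 were the peak in CHSY1, a chondroitin synthase, with 83.7% GC, the peak in ESYT2, a protein of contacts between endoplasmic reticulum and plasma membrane, with 77.2%, and the peak over the start of FAM234A with 66.9%. That of FAM234A was the 1 PRO peak of 66 over the start of a coding gene (1.52%), against 4.86% of PRO peaks in the rest. Starts of coding genes were met by 1 of 434 RS peaks (0.23%), against 0.834% in the rest, and by 5 of 258 DiffBind regions (1.94%), against 1.48%.

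Coding genes were met by no larger share at the ends than elsewhere. Of 491 protein-coding genes with their midpoint there, 16 (3.26%) were met by a PRO peak, 76 (15.5%) by an RS peak and 75 (15.3%) by a DiffBind region, against 4.09%, 20.9% and 18.1% of coding genes in the rest of chromosomes 1 to 22. Introns of coding genes held 23.9% of PRO bases, 43.5% of RS bases and 47.4% of DiffBind bases. They make up 44.1% of the ends when unknown bases are counted in, and so a larger share of the known bases. Sequence in no gene held 43.2% of PRO bases, against 29.1% of RS and 30.2% of DiffBind bases. It makes up 35.3% of the ends, again with unknown bases counted in. PRO peaks thus lay more outside genes than the regions of the other lists.

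The longest peak of each state lay in a pseudogene. At 15q, DNM1P47, a copy of part of the dynamin gene DNM1 (chr15:102291756-102305164), had 12564 of its 13409 bases in a PRO peak and 12201 in an RS peak, which were the longest member of each list, and 0 in a DiffBind region. Of the 75-base windows of this PRO peak, 85.7% had an exact copy elsewhere. At 18p a PRO peak of 7201 bases and an RS peak of 6601 overlapped along ROCK1P1, a copy of part of the kinase gene ROCK1, with 11.1% of PRO windows repeated. It also met no DiffBind region. DDX11L8 and DNM1P47 were the only genes of at least 1 kb that lay at least 90% within PRO peaks.

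Among coding genes with their midpoint at these ends, those with the most PRO bases had small shares of their length in peaks. The first was ENSG00000286001 at 5p, with 5601 bases (5.79%) in the peak that also meets SDHA, followed by SHC2 at 19p with 3401 (7.65%), EXD3 at 9q with 2201 and EHMT1 at 9q with 1801. EHMT1 encodes a methyltransferase of H3K9. The peaks in SHC2 and EXD3 met RS peaks for 3401 of 3401 and 2001 of 2201 bases, and that in EHMT1 met none. TUBB8B and TUBB8, tubulins of the same family, had 1402 bases at 18p and 401 at 10p, and THAP4 at 2q, ESYT2 at 7q, PHRF1 at 11p, CHSY1 at 15q, KCNG2 at 18q and FAM234A at 16p had between 482 and 1001. Of these 12 genes, 5 had 0 bases in an RS peak, among them PHRF1, ESYT2 and TUBB8.

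Among the same coding genes, the most RS bases lay in CTDP1 at 18q. CTDP1 (chr18:77439803-77514503), a phosphatase that acts on the tail of RNA polymerase II, had 13602 bases in RS peaks (18.2%), 15401 in DiffBind regions and 0 in PRO peaks. Its longest RS peak, of 8801 bases, lay wholly in the longest DiffBind region at the ends, of 15401 bases, and both spanned exons and introns. Its neighbour KCNG2, a potassium channel subunit, had 11393 RS, 18588 DiffBind and 601 PRO bases, and NFATC1, a transcription factor activated by calcium signalling, had 4204, 9603 and 0. The end 18q, where these 3 genes lie, had the most RS and DiffBind bases.

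Another 9 coding genes reach into the ends from a midpoint further in and were left out of this order. Of these, chosen after their values were seen, PTPRN2, a receptor-type tyrosine phosphatase gene of 1048766 bases, had more listed bases at 7q than CTDP1 at 18q. It had 19218 bases in 18 RS peaks, 20408 in DiffBind regions and 0 in PRO peaks, so none of its listed bases there were in a PRO peak. DLGAP2 at 8p, which encodes a scaffold protein of the synapse, had 4002 bases in PRO peaks, 7206 in RS peaks and 13407 in DiffBind regions, and ABR at 17p had 1201 PRO bases. The other 6 had 0 in all lists.

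Other coding genes of the order with the most RS bases were PCBP3 at 21q with 12008, an RNA-binding protein, ZNF596 at 8p with 11809, ZDHHC11B at 5p with 10340, of a family of palmitoyltransferases, and CACNA1B at 9q with 8810, a calcium channel subunit. AHRR, the repressor of the aryl hydrocarbon receptor, had 6807 at 5p, which are also counted in the read-through gene PDCD6-AHRR. DYNC2I1 at 7q, a dynein subunit of cilia, had 6203, and ERICH1 at 8p had 5801. PNPLA7 at 9q, a lipase, was among the first 6 by DiffBind bases with 8802. Of the 12 genes with the most RS bases in this order, 9 had 0 PRO bases, the exceptions being KCNG2, EXD3 and EHMT1, and only ERICH1 had no DiffBind base.

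The end of the short arm of chromosome 8 keeps 1 zinc finger gene with strong RS coverage. ZNF596 (chr8:182137-214703) had 36.3% of its length in RS peaks and 25.2% in DiffBind regions, the highest shares among the coding genes named here, and 0 in PRO peaks. It was met by 9 RS peaks, of 601 to 3401 bases, and none of them held a repeated 75-base window. Of the 8 zinc finger genes at the 33 ends, 2 were met by an RS peak, ZNF596 and ZFP62 at 5q, 1 by a DiffBind region and 0 by a PRO peak.

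Of 81 genes of families that recur at subtelomeres, zinc finger genes included, 5 (6.17%) were met by a PRO peak, 11 (13.6%) by an RS peak and 8 (9.88%) by a DiffBind region, against 2.44%, 10.4% and 8.81% of all 1476 genes at the ends. The families differed among themselves. Of 17 OR4F genes, which encode olfactory receptors, 10 CICP and 6 SEPTIN14P pseudogenes, and of the single FAM41C and FRG1 or FRG2 genes, 0 were met by any list. This does not hold for all olfactory receptor genes. Outside these families, and chosen after their values were seen, several at 1q were met by RS peaks, among them OR2T2 and OR2T35. Of 6 WASH genes, copies of a regulator of actin on endosomes, WASHC1 at 9p was met by all lists, WASH7P at 1p and WASH8P at 12p by RS peaks, and WASH4P at 16p by a DiffBind region. Of 8 DDX11L genes, 1 was met by a PRO peak, 0 by RS peaks and 3 by DiffBind regions. Of 8 RPL23AP pseudogenes, 3 were met by RS peaks, at 1q, 21q and 22q. Of 5 TUBB8 genes, 2 were met by PRO peaks, and of 4 FAM157 genes, 1 by a PRO peak and 1 by a DiffBind region. FAM138C and MIR1302-9HG at 9p were the members of their families met by an RS peak.

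DiffBind regions with no peak of either state included 2 of the 5 longest. One ran over 9201 bases at 9p (chr9:12001-21201) across DDX11L5 and part of WASHC1, and the other over 7401 bases at 16p (chr16:60201-67601) across DDX11L10, DDX11L16 and WASH4P. Both thus cover the same pair of families, and 87.0% and 59.5% of their 75-base windows had an exact copy elsewhere. Of the 80 DiffBind regions without a peak, 31 (38.8%) held a repeated window, against 54 of the 175 over an RS peak (30.9%). The list does not say in which state these regions had more reads. For its own longer list, the study states that the great majority were more enriched in RS cells. The remaining members of the longest 5, in CTDP1, in AFG3L1P at 16q with 12001 bases and over KCNG2 with 11001, lay over RS peaks for 13602, 8406 and 7404 bases.

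Several small PRO peaks lay in sequence of particular kinds. At 14q, where the outer 1 Mb holds the variable genes of the immunoglobulin heavy chain, there were 4 PRO peaks of at most 801 bases. None of them met an RS peak, which was also true of 42 of the 66 PRO peaks at all 33 ends. At 1p, a PRO peak of 601 bases lay over MTATP6P1 and MTCO3P12, nuclear copies of mitochondrial genes, and shared 1 base with an RS peak. At 8p, a peak of 3801 bases in DLGAP2, of which 2001 were in an RS peak, was the fifth longest PRO peak, and at 6q an RS peak of 5001 bases outside coding genes, the fifth longest in RS, had no PRO partner. Both were tandem in at least 60% of their windows.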

How the data were processed

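H4K20me3 was profiled by ChIP-seq with 2 antibodies in PRO and RS IMR90 cells, 4 samples in all. Single-end reads were placed on hg19 with Bowtie2 by the authors, who called domains with SICER in windows of 200 bp against total histone H4, and they deposited the positions of domains shared by both antibodies as 1 list per state. The submitters' processing notes name CASAVA 1.8.2, Trim Galore 0.3.0, Bowtie2 2.1.0, Picard 1.98, SICER 1.1 and DiffBind 1.8.3. The deposited DiffBind list has no direction and is shorter than the one described in the study, so it may be another version. Which count model gave it is not settled, since the authors name both edgeR and DESeq2. The lists hold no read counts, and library depth was not used here.

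Regions and genes were placed by midpoint, and positions are 1-based. Gene annotation was GENCODE 44 on GRCh37. Sequence measures used Python 3.11 scripts and pysam and were tested on simulated data. Named genes were the 12 coding genes with the most PRO and RS bases, the 6 with the most DiffBind bases (ranked among genes with their midpoint at the ends), every gene of at least 1 kb with at least 90% in PRO peaks, fixed subtelomeric families, the 5 longest regions of each list and those with a telomere-like run. Other regions named, genes that reach in from further inside, and the GC-rich class, were chosen after their values were seen. The members and the gene lists were chosen with earlier results of these data known. With 1 list per state, no test was made. Sequence of chromosome 8 and of the telomere-like clusters is not reported here.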

Additional observations from a re-analysis of the deposited data

How the results depend on the processing

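Of 67 values under the alternatives, 53 stayed near the reported value, within 1.5 times of a count or ratio or within the interval of a share, and 14 did not. Narrowing the ends to 500 kb gave 38 PRO peaks, 210 RS peaks and 121 DiffBind regions, and widening them to 2 Mb gave 106, 1018 and 606, with an RS to PRO ratio of 8.35, counts that follow the width. Leaving out regions with a repeated 75-base window left 24 PRO peaks and 171 DiffBind regions, and raised the ratio to 17. Without regions under 600 bp, 61.5% of DiffBind regions met an RS peak. Asking for at least 50% of both regions brought the shares of PRO peaks over RS peaks, RS peaks over DiffBind regions and DiffBind regions over RS peaks to 24.2%, 26.3% and 44.2%. RS bases exceeded PRO bases at 29 of 33 ends in the outer 500 kb, the others being 1p, 10p, 12p and 16p, and at 32 without repeated regions, the other being 9p. No paired analysis was possible because each state has 1 merged list with no values per sample, and for the same reason no sample could be left out. Library depth was not used here, and its part in the differences between the states was not tested. Nor was the part of the requirement that a peak be found with both antibodies. The absence of a peak does not show absence of the mark.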
